A study of Mus musculus with 6 samples.

Results

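The transcription factors that build and maintain dendritic cell lineages were examined in splenic dendritic cells with and without Map3k7. The 10 genes were Zbtb46, Batf3, Id2, Spi1, Tcf4, Bcl11a, Nfil3, Bcl6, Runx3 and Ikzf1. They were chosen by name, with earlier results of these data known. Every probe set whose platform annotation gives 1 of these symbols was taken, which made 23 of the 45037 tested probe sets, and each was read on its own. Knockout mice (genotype given as Map3k7CreER) and wild-type mice, both C57Bl/6, had received tamoxifen in vivo for 3 days to delete Map3k7, which encodes the kinase TAK1. CD11c+ cells were sorted from the spleen by flow cytometry, and 3 knockout and 3 wild-type samples were each hybridised to 1 Affymetrix 3′ array. The labels do not name the promoter that drives the CreER, say whether other cells of the mouse lost the gene, or give ages, and the wild-type group is not said to carry the CreER. The transgene, the deletion and any response elsewhere in the animal therefore cannot be told apart. No label states that samples within a group are from different mice, so the p-values cover the spread between the samples at hand, which may be technical.

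Dendritic cells arise from bone marrow precursors under a small set of transcription factors that act in opposition. Id2, which cannot bind DNA itself, holds back E proteins such as Tcf4, and this balance separates conventional from plasmacytoid dendritic cells. Batf3 and Nfil3 are needed for the CD8a-positive (type 1) conventional subset, Zbtb46 marks the conventional lineage as a whole, and Spi1, Bcl11a, Bcl6, Runx3 and Ikzf1 act in dendritic cells and in other blood lineages as well. TAK1 lies downstream of innate immune and TGF-beta receptors and activates the IKK complex, JNK and p38.

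Levels are RMA values on the log2 scale, in which the median probe set stood at 3.77, so a level near 4 may be background. Array medians lay between 3.77 and 3.81, and the number of arrays limits the precision. The deletion was visible in the RNA. On the 3 bright Map3k7 probe sets every knockout array lay between 3.17 and 4.46 and every wild-type array between 5.66 and 7.03, with log2 differences of -2.60, -2.34 and -3.25 (limma, Benjamini-Hochberg adjusted p = 0.00128, 0.0181 and 0.000165). The other 2 Map3k7 probe sets were dim and did not pass (limma adjusted p = 0.239 and 0.65). Whether the probes fall inside the deleted stretch was not analysed here. Itgax, which encodes CD11c, and Flt3, the growth factor receptor of the lineage, were bright in both groups. The cells were sorted on CD11c, so a high Itgax level follows from the sort. These 2 genes alone do not identify the cells as conventional dendritic cells. Itgax averaged 10.93 ± 0.10 in knockout and 11.16 ± 0.16 in wild-type cells (SD, 3 arrays each). Flt3 averaged 11.41 ± 0.12 in knockout and 11.07 ± 0.18 in wild-type cells.

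Zbtb46 was called lower in knockout cells on some of its probe sets, and none of the other 9 genes had a probe set past the threshold. Of the 23 probe sets, 2 were called lower, both of them Zbtb46, against 0.391% of all tested probe sets (limma, Benjamini-Hochberg adjusted p under 0.05 over 45037 probe sets). None was called higher (0 of 23, against 0.804% of all probe sets), 21 did not pass, and 1.19% of all probe sets passed in either direction. At an unadjusted p under 0.05, 3 were higher and 4 lower, and 12.3% of all probe sets reached that level in either direction. The 3 knockout arrays lay wholly apart from the 3 wild-type arrays on 7 of the 23 probe sets, 4 of them lower and 3 higher, against 8.83% and 8.64% of all probe sets, or 17.5% together. The median difference over the 23 was 0.09 on the log2 scale, and over all probe sets it was -0.01.

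**Figure D1:**
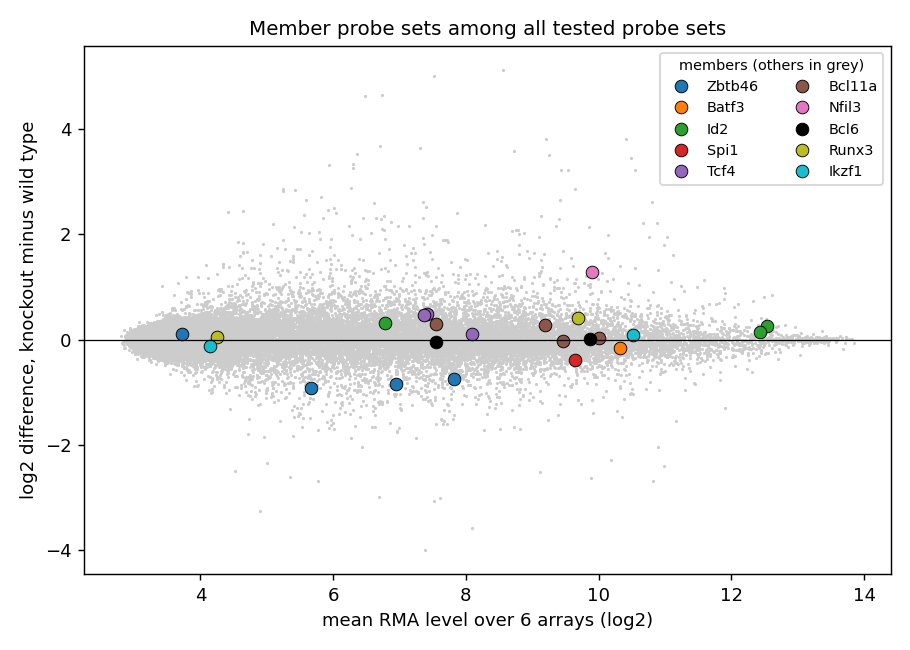
Each point is a probe set, placed by its mean RMA level over the 6 arrays (log2, horizontal) and its log2 difference, knockout minus wild type (vertical); coloured points are the 23 probe sets of the 10 factors, grey ones all tested probe sets. The bright Zbtb46 probe sets lie between -0.93 and -0.75 and Nfil3 lies at 1.28, while the other coloured points lie between -0.38 and 0.49.

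Zbtb46 encodes a zinc finger protein with a BTB domain that is found in conventional dendritic cells and their committed precursors and is absent from most macrophages. The region around a RefSeq start of the gene is shown because only Zbtb46 had probe sets past the threshold. It covers 250 bases before and 50 after the start, chr2:181424339-181424638 on the minus strand of GRCm38.p6, and lies inside the annotated span of the gene. Capitals mark the motif matches listed after it.
Zbtb46: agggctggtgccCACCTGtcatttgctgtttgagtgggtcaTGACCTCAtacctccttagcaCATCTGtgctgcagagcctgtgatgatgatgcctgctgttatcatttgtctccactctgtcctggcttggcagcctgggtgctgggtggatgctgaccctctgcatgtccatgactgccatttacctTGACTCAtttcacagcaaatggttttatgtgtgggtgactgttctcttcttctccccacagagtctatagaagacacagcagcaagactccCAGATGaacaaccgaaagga
The search covered both strands for AP-1 (TGANTCA), CRE-like (TGANNTCA), NFIL3 (TTANNTAA), PU.1 (GAGGAAGT) and E-box (CAGNTG) letters and for the NF-kB and glucocorticoid receptor consensus. The Zbtb46 window held 1 AP-1 match, starting 61 bases before this internal RefSeq start, and 1 CRE-like match, 209 bases before it. It also held 3 E-box matches, and no match to the other 4 motifs in this window. AP-1 letters occur in 7.81% of 32851 windows of the same length, CRE-like letters in 14.1% and E-box letters in 51.4%. A match is a description of the letters only, and since the window lies inside the gene it need not be a promoter.

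Zbtb46 has 4 probe sets. On 1440489_PM_at the level was 5.35, 5.36 and 4.92 in the knockout arrays, against 5.99, 6.21 and 6.21 in the wild-type arrays. The groups were 0.63 apart at their nearest arrays, and knockout replicate 3 was the lowest of all 6. The log2 difference was -0.93 (SE 0.14), a 1.90-fold lower signal with a 95% interval of 1.51 to 2.39 (limma adjusted p = 0.0287). On 1429168_PM_at the level was 6.68, 6.66 and 6.24 in knockout cells, against 7.17, 7.41 and 7.51 in wild-type cells. Again the groups did not overlap and knockout replicate 3 was lowest. The difference was -0.84 (SE 0.15), a 1.79-fold lower signal with a 95% interval of 1.41 to 2.27 (limma adjusted p = 0.048).

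The brightest Zbtb46 probe set, 1454884_PM_at, stood at 7.75, 7.38 and 7.21 in knockout cells, against 8.08, 8.26 and 8.25 in wild-type cells. The groups lay apart here too, but the difference of -0.75 (SE 0.15) missed the threshold (limma adjusted p = 0.0621). The fourth probe set, 1453856_PM_at, was dim in every array, at 3.72, 3.63 and 3.95 in knockout cells and 3.67, 3.50 and 3.83 in wild-type cells. Its groups overlapped and its difference was 0.10 (95% interval -0.19 to 0.40). It lies at the median level of the array, where no difference in transcript could be read. As the mean of all 4 probe sets, the dim one included, Zbtb46 stood at -0.60 (SE 0.11, limma adjusted p = 0.0507).

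The Zbtb46 calls rested on few arrays. With 1 array left out, 1429168_PM_at passed in 0 of 6 fits (limma adjusted p between 0.0514 and 0.167, differences between -0.93 and -0.70). 1440489_PM_at passed without knockout replicate 1 or knockout replicate 3 and failed without any of the other 4 arrays (limma adjusted p between 0.0328 and 0.119). 1454884_PM_at passed in 1 of 6 fits, without knockout replicate 1 (-0.90, limma adjusted p = 0.0184).

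**Figure D2:**
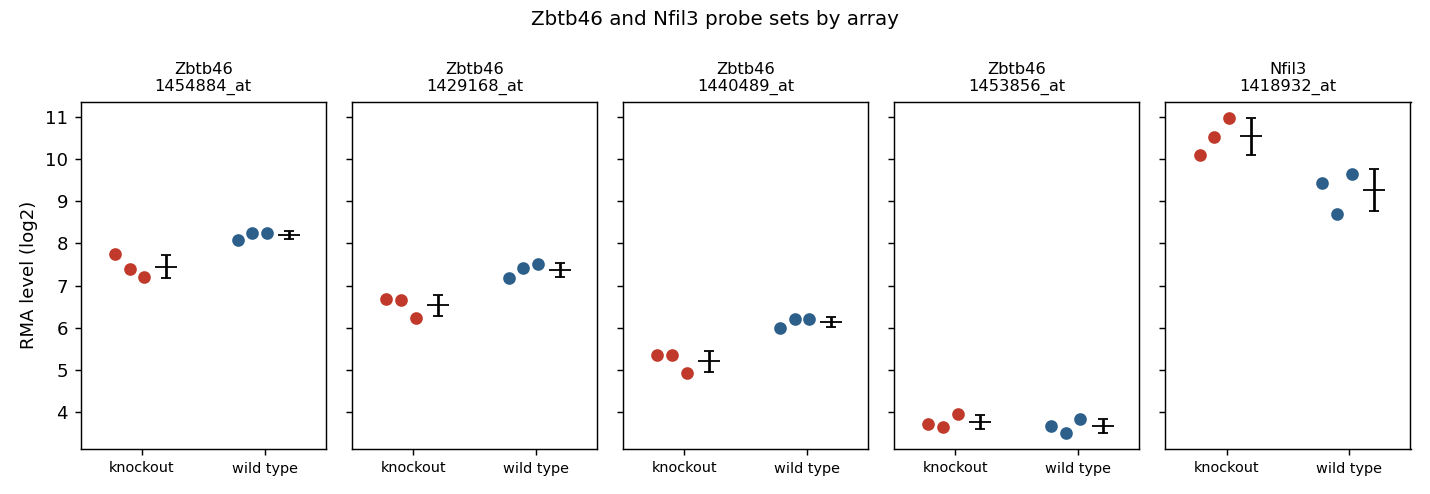
RMA level (log2) of the 4 Zbtb46 probe sets and the Nfil3 probe set, with 1 point for each array, knockout (red) left of wild type (blue), and the mean with its SD beside each group in black. On 3 Zbtb46 probe sets every knockout array lies below every wild-type array, on the dim 1453856_PM_at the groups overlap, and for Nfil3 the knockout arrays (10.10 to 10.99) lie above the wild-type arrays (8.70 to 9.66).

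Among the factors of the type 1 subset, Nfil3 had the largest difference in size of the 23 probe sets, and it did not pass. Nfil3, also called E4BP4, is a basic leucine zipper factor that is needed for type 1 dendritic cells and natural killer cells. Its 1 probe set, 1418932_PM_at, read 10.10, 10.53 and 10.99 in knockout cells, against 9.43, 8.70 and 9.66 in wild-type cells. All knockout arrays were higher, and the spread within each group was wide (SD 0.44 and 0.50), wild-type replicate 2 being the lowest array. The difference was 1.28 (SE 0.29), a 2.42-fold higher signal with a 95% interval of 1.53 to 3.84 (limma adjusted p = 0.0939). With 1 array left out it passed in 0 of 6 fits (limma adjusted p between 0.0598 and 0.282), while with a variance prior that follows the level it passed (limma adjusted p = 0.043). The window around an Nfil3 start, chr13:52980990-52981289 on the minus strand of GRCm38.p6, is shown because this gene had the widest difference. It too lies inside the annotated span of its gene, and its single match, an E-box, is in capitals.
Nfil3: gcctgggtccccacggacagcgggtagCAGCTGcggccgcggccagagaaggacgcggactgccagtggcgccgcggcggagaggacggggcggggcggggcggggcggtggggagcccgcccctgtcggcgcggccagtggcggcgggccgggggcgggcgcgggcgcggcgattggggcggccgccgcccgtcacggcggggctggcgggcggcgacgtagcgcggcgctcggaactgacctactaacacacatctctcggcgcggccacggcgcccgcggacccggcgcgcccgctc
Its G+C content was 81.7%, against 50.7% in the Zbtb46 window and a median of 52.7% over the 32851 windows. Of the members, 8 had 11 windows in all in the RefSeq table, and AP-1 letters were found in the Zbtb46 window only, while NF-kB letters were found in none of the 11, against 4.79% of all windows.

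Batf3, the AP-1 family factor on which the type 1 subset depends, read 10.22, 10.28 and 10.21 on 1453076_PM_at in knockout cells, against 10.27, 10.57 and 10.35 in wild-type cells. The groups overlapped, and the difference was -0.16 (95% interval -0.41 to 0.08, limma adjusted p = 0.635). Id2 had 3 probe sets. On 1422537_PM_a_at it read 12.53, 12.76 and 12.72 in knockout cells, against 12.32, 12.51 and 12.38 in wild-type cells, so that the groups were apart by 0.02. The difference was 0.26 (95% interval 0.02 to 0.51, limma adjusted p = 0.354). The second bright Id2 probe set, 1435176_PM_a_at, stood at 0.15 with overlapping groups (limma adjusted p = 0.676). The third, 1453596_PM_at, read 6.37, 6.69 and 7.78 in knockout cells and 6.43, 6.71 and 6.74 in wild-type cells. Its difference of 0.32 rested on knockout replicate 3, and without that array it was -0.09.

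Of the factors on the plasmacytoid side, Tcf4 (the E protein E2-2, not the Wnt factor Tcf7l2) had 3 probe sets, all with positive differences. On 1434148_PM_at it read 7.55, 7.69 and 7.57 in knockout cells, against 7.60, 6.95 and 6.85 in wild-type cells. Wild-type replicate 1 lay among the knockout arrays and the other 2 wild-type arrays below them. The difference was 0.47 (95% interval 0.03 to 0.91, limma adjusted p = 0.366), and without wild-type replicate 1 it was 0.70 (limma adjusted p = 0.074). On 1434149_PM_at the difference was 0.49 (95% interval -0.07 to 1.06), with wild-type replicate 2 at 6.59 far below the other arrays, which lay between 7.29 and 7.85. On 1424089_PM_a_at it was 0.10 (95% interval -0.20 to 0.40). Bcl11a, a zinc finger factor needed for plasmacytoid dendritic cells and B cells, had 4 probe sets that fell into pairs. On 1456632_PM_at and 1457072_PM_at the differences were 0.04 (95% interval -0.18 to 0.25) and -0.02 (95% interval -0.23 to 0.19). On 1419406_PM_a_at the level was 9.34, 9.39 and 9.26 in knockout cells, against 9.17, 9.20 and 8.77 in wild-type cells, with no overlap and wild-type replicate 3 lowest (difference 0.28, limma adjusted p = 0.448). 1426552_PM_a_at stood at 0.30 with overlapping groups (limma adjusted p = 0.498) and the same low array.

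Spi1 encodes PU.1, the ETS factor that myeloid and dendritic cells share. It read 9.44, 9.60 and 9.32 on 1418747_PM_at in knockout cells, against 9.71, 10.14 and 9.65 in wild-type cells. The groups were apart by 0.05, and the difference of -0.38 (95% interval -0.73 to -0.03) did not pass (limma adjusted p = 0.347). Runx3, a Runt factor that acts downstream of TGF-beta in dendritic cells, read 9.62, 9.85 and 10.22 on 1440275_PM_at in knockout cells, against 9.68, 9.54 and 9.25 in wild-type cells. Only knockout replicate 1 lay within the wild-type range, and the difference was 0.40 (95% interval -0.00397 to 0.81, limma adjusted p = 0.413). The other Runx3 probe set, 1421467_PM_at, was dim at 4.27 ± 0.03 in knockout and 4.24 ± 0.17 in wild-type cells (SD, 3 arrays each).

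Bcl6 and Ikzf1 had small mean differences, none of which passed. Bcl6, a BTB zinc finger repressor, read 9.77, 9.85 and 9.99 on 1421818_PM_at in knockout cells and 9.93, 9.65 and 10.02 in wild-type cells, a difference of 0.00397 (95% interval -0.28 to 0.29). Its second probe set, 1450381_PM_a_at, stood at -0.04 (95% interval -0.58 to 0.50), with replicate 3 the highest array in both groups. Ikzf1, which encodes Ikaros, read 10.37, 10.55 and 10.75 on 1436312_PM_at in knockout cells and 10.57, 10.35 and 10.48 in wild-type cells (difference 0.09, 95% interval -0.19 to 0.38). Its other probe set, 1421303_PM_at, was dim and stood at -0.13 (95% interval -0.47 to 0.21). For 12 of the 23 probe sets the whole 95% interval lay within a 1.5-fold change in either direction. These include the dim Zbtb46 1453856_PM_at, Runx3 1421467_PM_at and Ikzf1 1421303_PM_at, where a narrow interval says little about the transcript. The p-values of these genes do not show that their levels were equal.

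**Figure D3:**
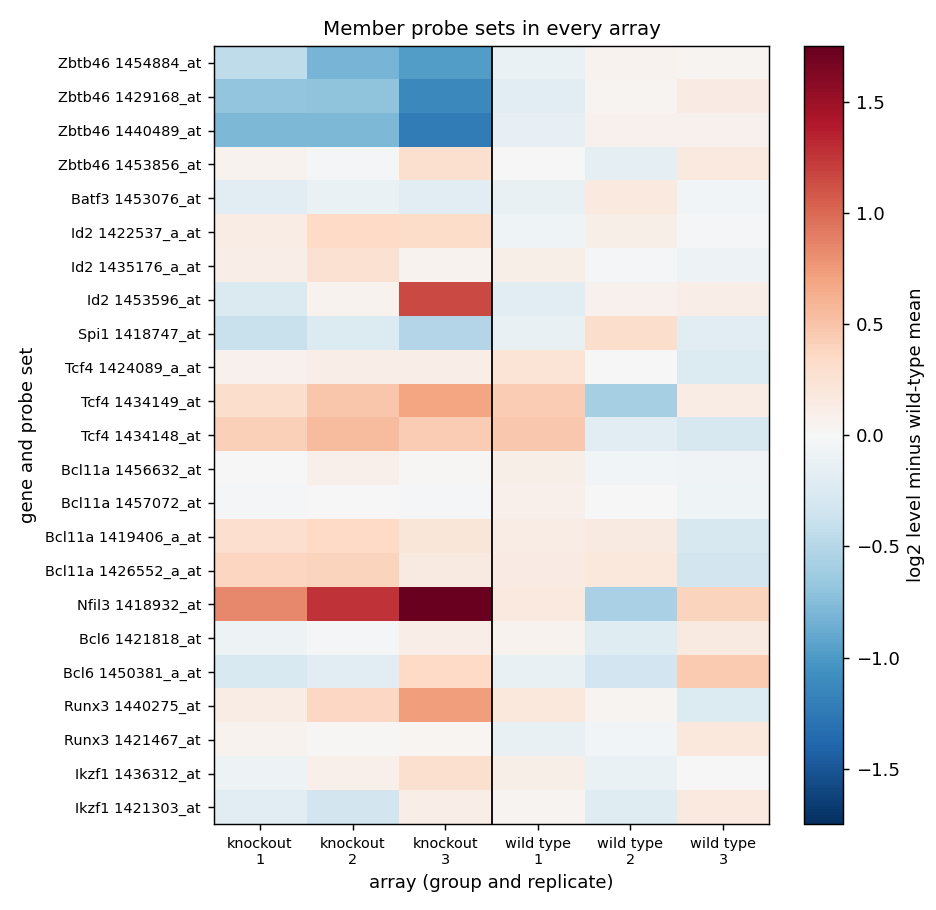
Colour gives the log2 level of each of the 23 probe sets in each array minus the mean of the 3 wild-type arrays for that probe set; rows are probe sets grouped by gene, columns the 3 knockout arrays and then the 3 wild-type arrays. The bright Zbtb46 rows are blue and the Nfil3 row red in all 3 knockout arrays, and knockout replicate 3 has the deepest colour for bright Zbtb46, Nfil3, Runx3 1440275_PM_at and Id2 1453596_PM_at.

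**Figure D4:**
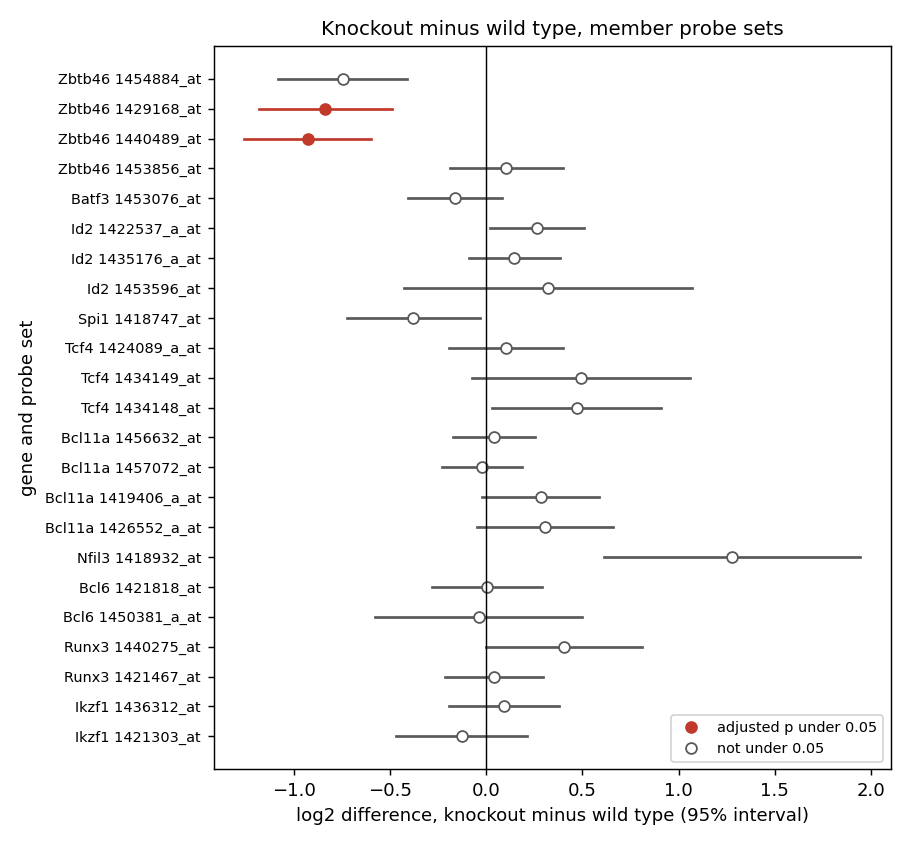
Points are log2 differences, knockout minus wild type, of the 23 probe sets, with 95% intervals from limma; filled red points have an adjusted p under 0.05. The 2 filled points are Zbtb46 probe sets at -0.84 and -0.93, and the interval of Nfil3 runs from 0.61 to 1.94.

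Members of the same protein families as the 10 factors were read by their brightest probe sets. Of 24 measured relatives, 1 rose, 0 fell and 23 did not pass (median difference 0.08, against -0.02 over 17097 genes, of which 1.08% were called higher and 0.591% lower by limma). At an unadjusted p under 0.05, 6 of the 24 differed. The 1 that rose was Zbtb16, the BTB zinc finger factor PLZF, at 6.19 ± 0.55 in knockout and 4.30 ± 0.20 in wild-type cells (SD, 3 arrays each), a difference of 1.88 (limma adjusted p = 0.0173) that passed in 3 of the 6 fits that each lack an array. Of 30 other measured transcription factors of dendritic cells, 2 fell, 1 rose and 27 did not pass (median difference -0.05). Of these 30, 12 had an unadjusted limma p under 0.05, a level that 12.3% of all probe sets reached. That share counts dim probe sets too and is not matched in level. The 30 were read by their brightest probe sets, and only 3 averaged less than 1 log2 unit above the median. Relb, the NF-kB subunit of the noncanonical pathway, stood at -1.22 (limma adjusted p = 0.0125) and Klf2, a quiescence factor, at -0.67 (limma adjusted p = 0.0444). Cebpb, a basic leucine zipper factor of myeloid cells, stood at 1.06 (limma adjusted p = 0.034). In the 6 fits that each lack an array, Relb passed 4 times, Klf2 in 0 and Cebpb in 2. Irf8, the partner of Batf3, picked here after its values were seen, averaged 11.08 ± 0.16 in knockout and 11.67 ± 0.24 in wild-type cells, a difference of -0.59 that did not pass (limma adjusted p = 0.121).

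The gene pattern most like that of Zbtb46 1429168_PM_at, the brighter of its 2 called probe sets, over the 6 arrays was that of Lmo4, followed by Cyb561a3 and Ccnd1, among 16486 probe sets with a single symbol and a level no lower than the median. The root mean square difference between their centred log2 values was 0.08 for each. Their differences were -0.94, -0.80 and -0.84, and Cyb561a3 did not pass (limma adjusted p = 0.0669). The genes were picked for this closeness, so differences near that of Zbtb46 follow from the choice.

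Genes that the factors are known to act on or mark were then set beside them. In mice lacking Zbtb46, dendritic cells have been reported to carry more Lifr and Csf3r mRNA, the receptors for leukemia inhibitory factor and G-CSF. The pair was chosen with earlier results of these data known, so it is not an independent check. Lifr read 8.52, 9.18 and 9.69 in knockout cells, against 5.75, 4.87 and 5.85 in wild-type cells, a difference of 3.64 (SE 0.34, limma adjusted p = 0.00404) that passed in all 6 fits lacking an array. Of its 3 probe sets 2 passed, with differences between 0.68 and 3.64 over the 3. Csf3r read 5.28, 5.55 and 5.56 in knockout cells, against 4.90, 4.79 and 5.21 in wild-type cells. Its groups did not overlap, and the difference of 0.49 did not pass (limma adjusted p = 0.171). Whether the level of Zbtb46 has a part in either was not tested.

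Markers of the dendritic cell subsets moved in both directions. Of 14 measured type 1 markers, 1 rose, 1 fell and 12 did not pass on their brightest probe sets (median difference -0.14). Among the 14, 7 had an unadjusted limma p under 0.05, a level that 12.3% of all probe sets reached. Over 17097 genes by brightest probe set, limma called 1.08% higher and 0.591% lower. Itgae, the integrin CD103, stood at 1.79 (limma adjusted p = 0.0211) and the receptor Tlr12 at -1.01 (limma adjusted p = 0.007). The brightest Cd8a probe set had a difference of -1.47 (limma adjusted p = 0.062), and 1 of its 3 probe sets passed as lower. Of 12 type 2 markers, 2 rose, 1 fell and 9 did not pass (median 0.06), and 8 had an unadjusted limma p under 0.05. The lectin Clec10a stood at 1.99, the integrin Itgam at 1.31 and the Notch target Dtx1 at -0.97 (limma adjusted p = 0.0026, 0.0466 and 0.0306). When each array was dropped in turn, Tlr12 and Clec10a passed in 6 of 6 fits, Itgae in 4, Dtx1 in 2 and Itgam in 1. Of 12 markers of conventional dendritic cells as a whole none passed (0 by limma, 3 at an unadjusted p under 0.05, median -0.00365), Flt3 and Ciita having the smallest p (limma adjusted p = 0.284 and 0.362). Of 14 plasmacytoid markers none passed (0 by limma, 4 at an unadjusted p under 0.05, median 0.00213). Spib, an ETS factor of these cells, stood at -0.88 (limma adjusted p = 0.0635) and Ptcra at 0.48 (limma adjusted p = 0.101).

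Because the 10 factors are shared with other blood cells, markers of those cells were read in the same arrays. In bulk RNA, fewer cells of a type and less RNA per cell cannot be told apart. Of 17 macrophage markers, 4 rose, 0 fell and 13 did not pass on their brightest probe sets. Differences were positive for 12 and negative for 5 (median 0.29). Over 17097 genes, limma called 1.08% higher and 0.591% lower. Of the 17 markers, 9 had an unadjusted limma p under 0.05, a level that 12.3% of all probe sets reached. The 4 that rose were Cd14 (2.09), Cd163 (1.58), Mertk (1.16) and Cd5l (1.51), with limma adjusted p between 0.00873 and 0.0166. The summed linear signal of the list was 5054 to 6547 in knockout and 4646 to 5037 in wild-type arrays (exact permutation test, two-sided, p = 0.1, the smallest that 3 against 3 arrays allow), while Vsig4, Timd4 and Maf stayed within 1 log2 unit of the array median in both groups. Cell cycle genes had negative differences in 14 of 14 cases (median -0.86, where 46.1% of all genes had a positive one). Of these, 12 had an unadjusted limma p under 0.05, and 1 was past the threshold, Mcm2 (-1.51, limma adjusted p = 0.029). Their sums were 6181 to 8459 in knockout and 9560 to 11173 in wild-type arrays (exact permutation p = 0.1). Erythroid markers had 8 of 8 negative differences, 6 of them at an unadjusted limma p under 0.05. Over the 6 arrays 5 of the 8 averaged less than 1 log2 unit above the median level, where a sign may be background. Hbb-b2 passed at -3.01 (limma adjusted p = 0.0325) and Hba-a1 on 1 of 3 probe sets. The erythroid sums were 270 to 445 in knockout and 863 to 2832 in wild-type arrays (exact permutation p = 0.1). The part of these shifts in the lower Zbtb46 signal was not tested.

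No marker of the remaining cell types passed (limma, 0 of 9 monocyte, 10 neutrophil, 11 B cell, 8 T cell and 12 natural killer cell genes, with 4, 4, 3, 0 and 2 at an unadjusted p under 0.05). Over all probe sets 12.3% reached that unadjusted level. The genes with the smallest p were Ace (-0.49) and Cx3cr1 (-1.02) for monocytes, Mmp8 (0.84) and S100a8 (2.28) for neutrophils, Cr2 (-0.53) and Blk (-0.57) for B cells, Cd3d (-0.25) and Cd5 (-0.33) for T cells, and Gzma (0.59) and Tbx21 (-0.28) for natural killer cells. Summed B cell signal was 533 to 585 in knockout and 633 to 803 in wild-type arrays, and the neutrophil sum 370 to 1488 in knockout and 219 to 356 in wild-type arrays (exact permutation p = 0.1 for each). The T cell sum was 182 to 214 in knockout and 217 to 232 in wild-type arrays (exact permutation p = 0.1), while the monocyte and natural killer cell sums overlapped between the groups (exact permutation p = 0.3 and 0.9). The B cell markers Cd79a, Pax5 and Ebf1, the T cell marker Cd3d and the natural killer cell marker Ncr1 lay within 1 log2 unit of the array median in both groups. By their mean over the 6 arrays, 7 of 11 B cell, 6 of 8 T cell and 9 of 12 natural killer cell genes lay less than 1 log2 unit above the median level. The same held for 7 of 10 neutrophil and 4 of 9 monocyte genes. On such dim genes the sign of a difference may be background.

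**Figure D5:**
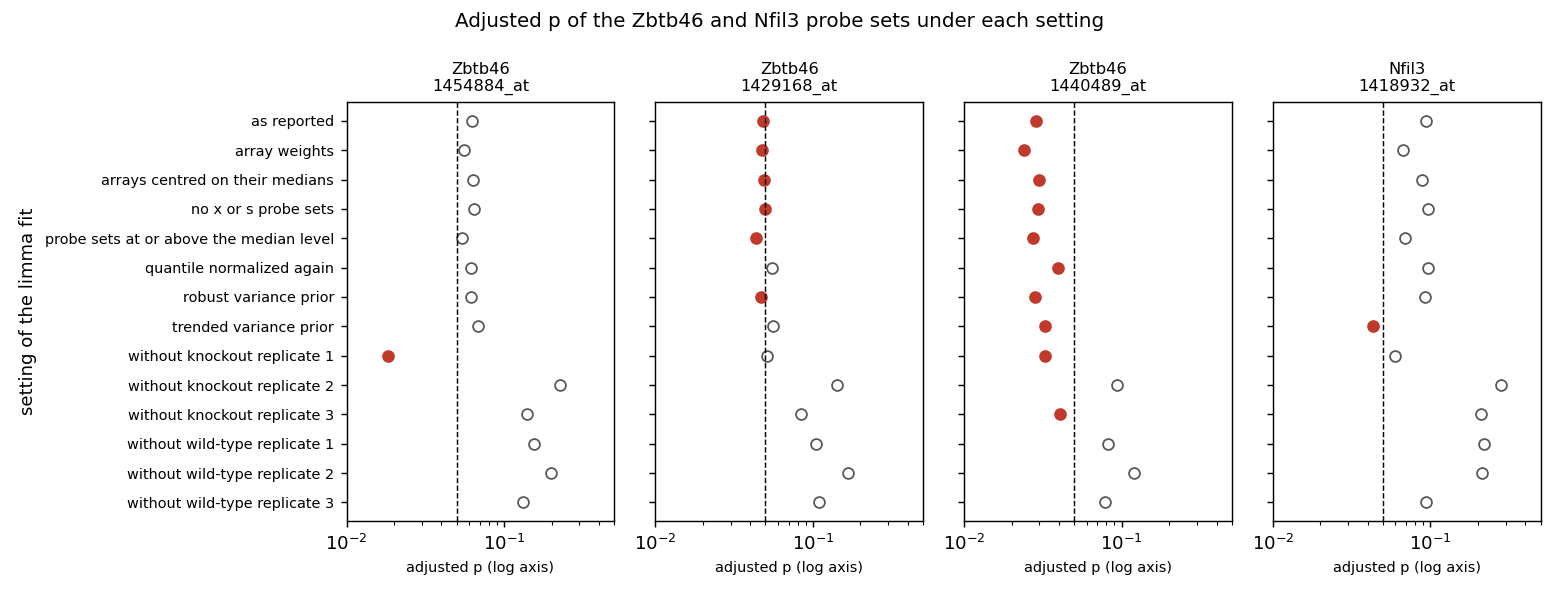
Benjamini-Hochberg adjusted p (log axis) of 3 Zbtb46 probe sets and the Nfil3 probe set in the reported limma fit and under other settings, 1 row for each; filled red points lie under 0.05, marked by the dashed line. Zbtb46 1440489_PM_at stays under the line in every setting shown that keeps all 6 arrays, and 1429168_PM_at lies close to it.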

How the data were processed

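The deposited values are log2 signals. Per the submitters' processing notes, the authors made them by RMA, that is background correction, quantile normalization and probe set summary, in Expression Console (Affymetrix) 1.1. The values run from 2.58 to 13.91, which is where the log2 scale was read from. Labelling started from 100 ng of RNA, per the labels' protocols. RMA gives no detection call and arrays give no depth.

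Of 45141 probe sets 104 were controls, and the other 45037 entered 1 limma fit (version 3.58.1 in R 4.3.3, lmFit then eBayes, no covariates) of knockout minus wild type. P-values were adjusted by Benjamini-Hochberg over all 45037, with a threshold of 0.05. The platform annotation gave 28898 of these 1 symbol, and a gene outside the 10 was read by its brightest probe set. Marker sums were compared by a two-sided exact permutation test. The 10 factors and the 15 other lists were chosen with earlier results of these data known. From each list the genes past the threshold were named (at most 5), or, where none passed, the 2 with the smallest p. Likeness to Zbtb46 was the root mean square difference of centred log2 values, and the 3 nearest genes were named. The fit was tested on simulated data, in which it recovered 10% of added log2 differences of 0.5, 76% of those of 1 and 94% of those of 2. Most true differences of 0.5 would therefore not pass. Alternatives were a filter on dim probe sets, other normalizations and variance priors, array weights, a replicate block, other thresholds and leaving out each array. Windows are those around RefSeq starts (GRCm38.p6), and some lie inside the annotated gene. No pair of arrays was identical (0).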

Additional observations from a re-analysis of the deposited data

How the results depend on the processing

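The count of lower probe sets among the 10 factors was 2. It was 1 after a further quantile normalization, 1 with a trended variance prior, 1 with the replicate block, 0 at an adjusted p under 0.01, 4 at an unadjusted p under 0.05, and 0 to 2 with 1 array left out. The count of higher probe sets was 0. It was 1 with a trended prior, 1 with the replicate block and 1 at an adjusted p under 0.1 (Nfil3 in each), 3 at an unadjusted p under 0.05, and 0 with any 1 array left out. Over the probe sets of the other lists 20 passed, against 31 with array weights, 40 with the replicate block and 5 to 32 with 1 array left out.

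The replicate numbers do not pair the arrays by the labels, and deviations from the group means of same-numbered arrays correlated at 0.08, 0.15 and 0.37, not each best with its own number. With the block the limma adjusted p was 0.0366 for Nfil3, 0.0521 for Zbtb46 1429168_PM_at and 0.0324 for 1440489_PM_at.

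Signs turned only on probe sets that did not pass. Bcl6 1421818_PM_at was at -0.0145 with array weights, -0.0183 as the mean of its gene's probe sets (an alternative chosen after seeing the data) and -0.00701 after quantile normalization, and Ikzf1 1436312_PM_at at -0.0180 as such a mean. With 1 array left out the ranges were -0.105 to 0.0822 and -0.232 to 0.189 for the Bcl6 probe sets, -0.00335 to 0.187 for Ikzf1 1436312_PM_at, -0.0940 to 0.611 for Id2 1453596_PM_at, -0.0165 to 0.221 for Tcf4 1424089_PM_a_at, -0.0611 to 0.0230 for Bcl11a 1457072_PM_at and -0.0291 to 0.135 for Runx3 1421467_PM_at. The cause was not tested. On dim probe sets (Zbtb46 1453856_PM_at, Runx3 1421467_PM_at, Ikzf1 1421303_PM_at) the signal over background limits any reading.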
